A study of Homo sapiens with 11 samples.

Results

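The enzymes that make, recycle and interconvert nucleotides were examined as a set of 37 genes out of the 45965 genes in the table. They were chosen by symbol and cover the de novo purine, de novo pyrimidine, deoxynucleotide, kinase and salvage steps. All 37 symbols were found, each on 1 row, and 36 passed the filter on low counts. CTPS2, a second CTP synthase, had 1 count in R175H R72 replicate 2 and none in the other 10 libraries, and was not tested.

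The series holds 11 RNA libraries, read as tags from the 3′ ends of transcripts, from H1299 cells, an established human lung cancer line without p53 protein of its own. All libraries came from stably transfected, neomycin-selected cells carrying a p53 hotspot mutant, R273H or R175H, on the arginine (R72) or proline (P72) form of the codon 72 polymorphism. R273H R72 had 1 library (replicate 3, batch b2) and R273H P72 had 4 (replicate 1 in batch b2 and replicates 2, 3 and 4 in batch b1). R175H R72 had 3 libraries (replicate 1 in batch b1, replicates 2 and 4 in batch b2) and R175H P72 had 3, all in batch b2. No group without mutant p53 was analysed, so every difference here is between mutants or between codon 72 forms. Nothing in the labels states that the replicates of a group were grown or selected separately, and the p-values therefore reflect library-to-library spread that may be purely technical.

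Library totals were 8346926 to 12829560 estimated counts. KRT8, KRT18 and VIM, which epithelial carcinoma lines and mesenchymal cells express, had 30064, 92747 and 139543 counts over the 11 libraries. KRT19, another keratin of the same marker list, had only 11 counts, and the lung markers NKX2-1 and SFTPC had 81 and 0. Summed markers of other cell types were low, at 1.79 to 6.43 CPM (counts scaled to a common library total) for fibroblasts, 0.237 to 5.18 for leukocytes and 0.499 to 1.56 for endothelium, and COL1A2, LUM, CD3E and CDH5 had 0 counts. The 37 genes together took 0.335% of counts in the R273H R72 library, 0.324% to 0.335% in R273H P72, 0.321% to 0.344% in R175H R72 and 0.351% to 0.359% in R175H P72. In bulk RNA, fewer cells expressing a gene and less RNA per cell cannot be told apart.

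Cells build purines stepwise on a ribose phosphate scaffold that PRPS enzymes supply, and pyrimidines as a ring that is joined to the same scaffold afterwards. Ribonucleotide reductase turns ribonucleotides into the deoxynucleotides of DNA, and thymidylate synthase supplies the thymine nucleotide, so these genes are tied to S phase. Salvage enzymes recover bases and nucleosides at lower energy cost, and proliferating carcinoma cells use both routes.

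Promoter sequence is shown for 5 genes whose values are described in detail. They are the subunits of ribonucleotide reductase (RRM1 and RRM2), the salvage enzymes that differed most clearly between hotspots (UPP1 and APRT), and PPAT, the entry enzyme of purine synthesis. Each line gives the 250 bases upstream of a RefSeq transcript start (GRCh38.p14), 5′ to 3′ on the gene's strand. Capitals mark CCAAT, the letters of the NF-Y motif, or CACGTG, the E-box that MYC family factors recognise.
RRM1, chr11:4094435-4094684, plus strand: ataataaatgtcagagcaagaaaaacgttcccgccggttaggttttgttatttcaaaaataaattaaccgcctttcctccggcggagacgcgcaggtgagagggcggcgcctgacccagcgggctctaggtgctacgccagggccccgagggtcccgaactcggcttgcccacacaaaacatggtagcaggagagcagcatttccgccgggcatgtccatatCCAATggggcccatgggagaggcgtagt
RRM2, chr2:10122489-10122738, plus strand: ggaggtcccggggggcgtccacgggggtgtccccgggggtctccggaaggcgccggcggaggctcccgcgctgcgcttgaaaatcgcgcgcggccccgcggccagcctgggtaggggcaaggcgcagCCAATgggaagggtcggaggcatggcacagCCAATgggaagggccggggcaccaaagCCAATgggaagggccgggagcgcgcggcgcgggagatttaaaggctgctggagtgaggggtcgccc
UPP1, chr7:48089004-48089253, plus strand: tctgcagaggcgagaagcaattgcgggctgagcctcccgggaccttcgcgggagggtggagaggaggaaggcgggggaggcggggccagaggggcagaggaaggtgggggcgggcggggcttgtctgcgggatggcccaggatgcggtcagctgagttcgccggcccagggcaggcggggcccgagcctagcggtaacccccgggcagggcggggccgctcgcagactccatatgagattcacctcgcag
APRT, chr16:88811929-88812178, minus strand: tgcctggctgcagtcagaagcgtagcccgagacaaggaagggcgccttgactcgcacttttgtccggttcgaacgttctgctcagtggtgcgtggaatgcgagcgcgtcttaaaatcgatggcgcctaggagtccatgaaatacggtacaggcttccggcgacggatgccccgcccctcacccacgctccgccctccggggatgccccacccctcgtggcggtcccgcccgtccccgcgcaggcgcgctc
PPAT, chr4:56435616-56435865, minus strand: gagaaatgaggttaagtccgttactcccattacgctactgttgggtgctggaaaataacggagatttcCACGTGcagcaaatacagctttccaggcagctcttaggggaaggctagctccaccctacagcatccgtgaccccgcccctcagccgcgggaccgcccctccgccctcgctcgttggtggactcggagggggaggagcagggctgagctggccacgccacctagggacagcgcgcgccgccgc
CCAAT occurred 3 times upstream of RRM2 and 1 time upstream of RRM1, and CACGTG occurred 1 time upstream of PPAT. Neither these motifs nor TTTNGCGC, the letters of an E2F site, occurred in the UPP1 and APRT windows. Searched on both strands, CCAAT was found for 13 of the 35 members with a RefSeq promoter (37.1%) and for 37% of 27305 genes. CACGTG was found for 5 members (PPAT, ATIC, DHODH, UCKL1 and DCK, 14.3%) and for 7.73% of genes, and TTTNGCGC for 1 member (GART, 2.86%) and 1.84% of genes. These are letter matches in this window only and say nothing of binding. PPAT and PAICS, which encode enzymes of the same pathway, start 137 bases apart on opposite strands of chromosome 4.

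**Figure D1:**
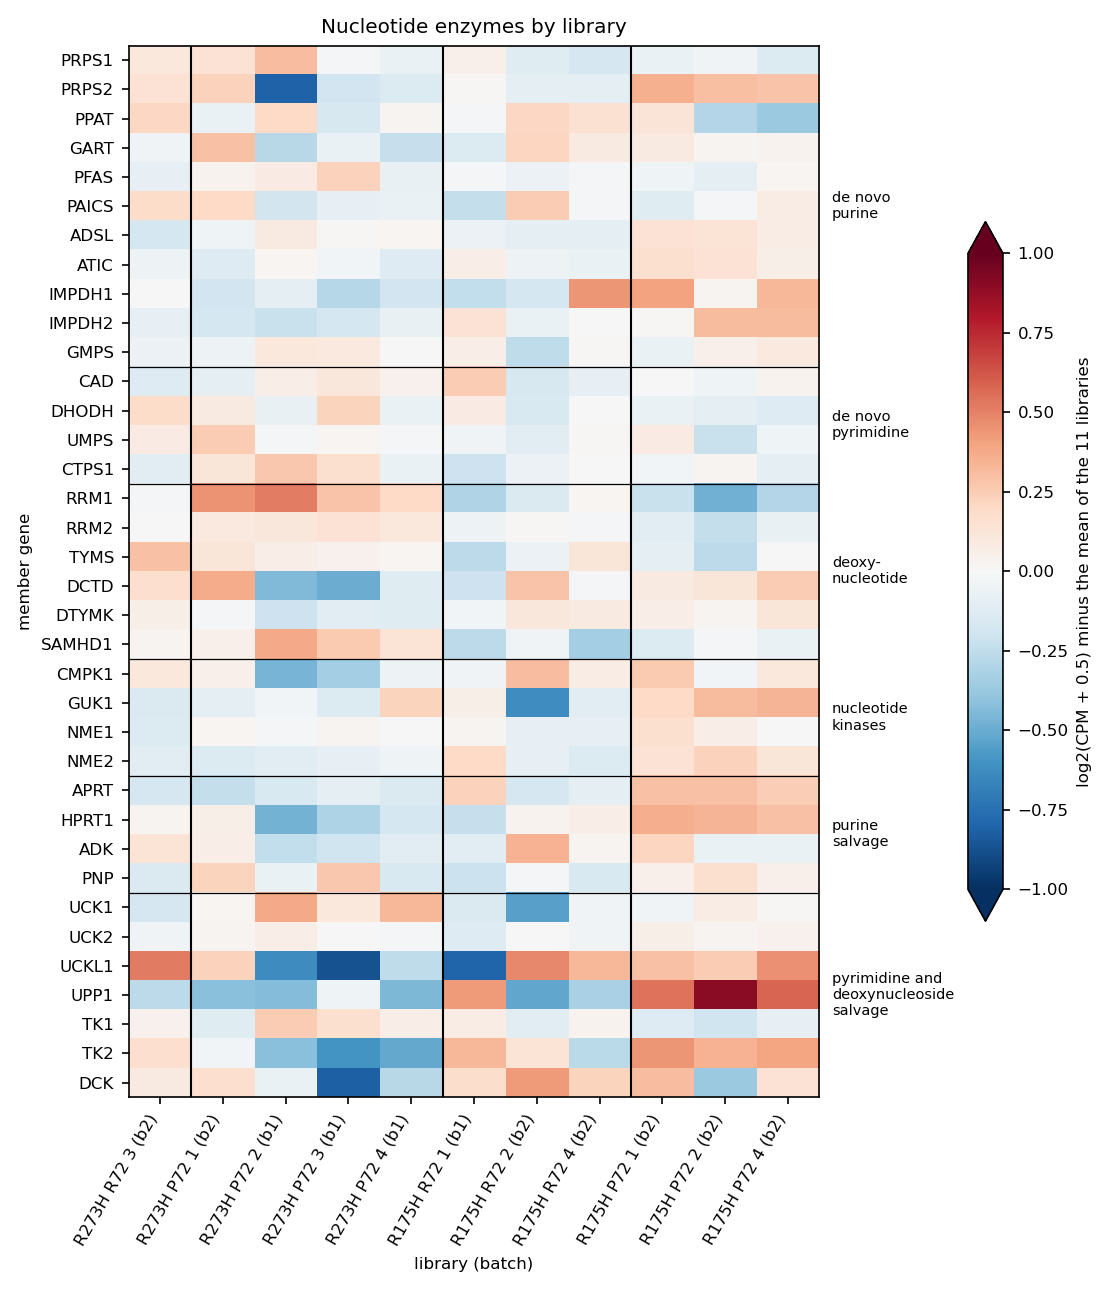
Each row is 1 of the 36 members tested and each column 1 library, named with its batch; colour is log2(CPM + 0.5) minus the mean over the 11 libraries. The R175H P72 columns stand out in UPP1, APRT, HPRT1 and TK2, the R273H P72 columns in RRM1, and UCKL1 is low in all 4 libraries of batch b1.

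Across the 11 libraries the members varied unequally, as the heat map of all members shows. The coefficient of variation was lowest for the uridine-cytidine kinase UCK2, at 3.84%, and next for the nucleoside diphosphate kinase NME1, at 5.67%. It was highest for uridine phosphorylase UPP1 at 38.4%, followed by the putative uridine kinase UCKL1 at 33.8%, mitochondrial thymidine kinase TK2 at 26.2%, deoxycytidine kinase DCK at 24.5% and RRM1 at 23.1%. Part of this variation followed the batches. In the fit with batch as a term, 6 of 36 members differed between b1 and b2 (edgeR quasi-likelihood test, adjusted p under 0.05), against 9.21% of all genes. These were 1 member higher in b1 (3.6% of all genes) and 5 lower (5.61% of all genes). CAD was higher in b1 by 0.27 on the log2 scale, and UCKL1 (-1.02), DCTD (-0.56), GART (-0.40), PAICS (-0.34) and HPRT1 (-0.33) were lower in b1. UCKL1 had 6.09, 5.07, 8.02 and 5.33 CPM in the 4 b1 libraries, below its 11.4 to 14.1 CPM in the 7 b2 libraries.

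R175H R72 replicate 1, the only R175H library in batch b1, stood apart from R175H R72 replicates 2 and 4 in the genes described next. It had 144 CPM of UPP1, against 74.5 and 85.7 in replicates 2 and 4, and 206 CPM of APRT, against 156 and 164. Within R175H, this library and batch b1 cannot be told apart. Calls of members that were lost without it are named with the results.

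Between R273H and R175H on P72, 4 libraries against 3, 8 of the 36 members differed. Of the deoxynucleotide genes, RRM1 was 1.77-fold higher and TYMS 1.24-fold higher in R273H P72. Of the salvage enzymes and nucleotide kinases, UPP1 was 2.56-fold lower, TK2 1.65-fold lower, APRT 1.52-fold lower, GUK1 1.40-fold lower and NME2 1.31-fold lower. IMPDH2, a step of purine synthesis, was 1.37-fold lower. The members called were 22.2% of those tested, against 14.6% of all genes in this comparison, with 2 higher (6.95% of all genes) and 6 lower (7.6% of all genes). The median log2 fold change of the members was 0.01, against 0.00 over all genes. The libraries of both groups did not overlap for 15 members, or 41.7%, against 28.1% of all genes. Of the R273H P72 libraries only replicate 1 shares batch b2 with R175H P72, so such gaps mostly set b1 against b2 libraries. The batch term is estimated from R273H P72 and R175H R72, the groups with libraries in both batches. Within batch b2 alone R273H P72 has 1 library, which the fit assumes to vary like the other groups, so the p-values given for that batch rest on their spread. For 10 of the 36 members, none of them called, the batch-adjusted value and the log2 ratio of the plain group means had opposite signs.

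**Figure D2:**
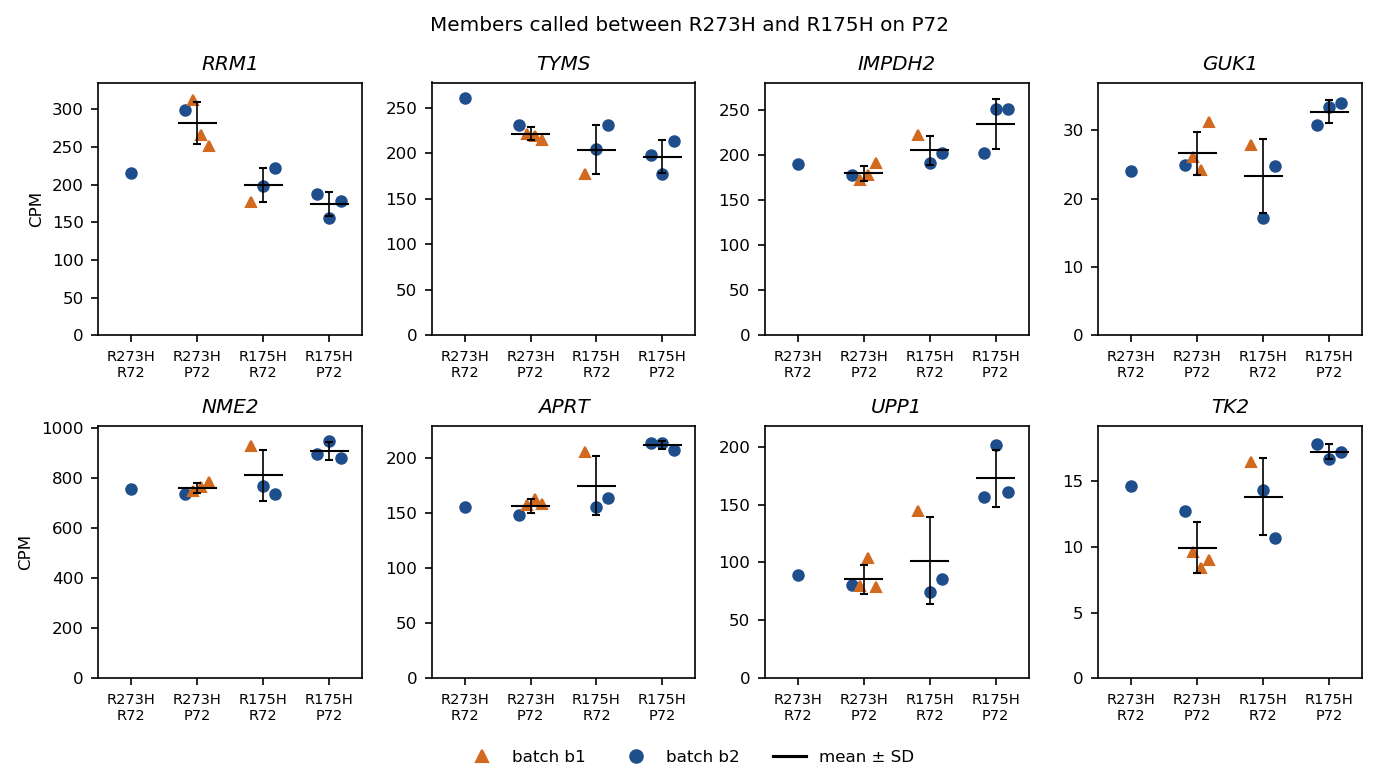
CPM by library for the 8 members called between R273H and R175H on P72, by group; triangles are batch b1, circles batch b2, and lines with bars are mean ± SD (R273H R72 is 1 library). RRM1 in R273H P72 (251 to 312 CPM) lies above every other library. In the UPP1, APRT, NME2, TK2, IMPDH2 and GUK1 panels R175H R72 replicate 1 is the highest of its group.

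The deoxynucleotide step held both genes called higher. RRM1 (ENSG00000167325, chromosome 11, 4094707 to 4138876, plus strand, hg38), the large catalytic subunit of ribonucleotide reductase, had 298, 312, 266 and 251 CPM in R273H P72, against 187, 156 and 178 CPM in R175H P72. The lowest R273H P72 library was well above the highest R175H P72 library, with means of 282 ± 28.1 and 174 ± 16.1 CPM (SD, n = 4 and 3). The fitted log2 fold change was 0.83 (SE 0.11, 95% interval 0.60 to 1.06, adjusted p = 7.66e-05, edgeR quasi-likelihood test with Benjamini-Hochberg adjustment), and it was 0.78 within batch b2 alone. RRM2, the small subunit that carries the radical and is made in S phase, had 102, 104, 106 and 103 CPM in R273H P72, against 88.9, 81.0 and 91.1 CPM in R175H P72. These groups did not overlap either, but the difference of 0.26 (SE 0.09) did not pass the adjusted test (edgeR adjusted p = 0.0697).

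Thymidylate synthase TYMS (ENSG00000176890, chromosome 18, 657604 to 673578, plus strand), which methylates dUMP, had 231, 222, 219 and 215 CPM in R273H P72, against 198, 177 and 213 CPM in R175H P72. The groups were separated by a narrow gap, and the log2 fold change of 0.31 (SE 0.10) only just passed (edgeR adjusted p = 0.0463). The call held in 2 of the 11 fits that left out 1 library. It was lost without the batch term at 0.18 (edgeR adjusted p = 0.243), with the GC correction at 0.28 (edgeR adjusted p = 0.088), with the replicate block, and within batch b2 alone at 0.24 (edgeR adjusted p = 0.314). ENOSF1 and TYMSOS overlap TYMS on the opposite strand, the larger of them with 32.9% of its counts, and the sources used here do not give whether counting used strand. SAMHD1, which breaks deoxynucleotides down, had 25.3, 31.9, 29.3 and 26.8 CPM in R273H P72, against 22.2, 24.0 and 23.3 CPM in R175H P72, and did not pass. DTYMK had 93.4, 82.0, 88.2 and 87.1 CPM in R273H P72, below the 99.0, 96.6 and 103 CPM of R175H P72. It was not called. For DCTD, also not called, the log2 ratio of the plain group means was -0.29, and the batch-adjusted value had the opposite sign. Over the 6 genes of this step, 2 were called higher, against 6.95% of all genes, and none was called lower. The fitted log2 fold changes ran from -0.09 to 0.83, with a median of 0.24.

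In purine synthesis 1 of 11 genes was called (9.09%), a smaller share than the 14.6% of all genes. IMPDH2 (ENSG00000178035, chromosome 3, 49024325 to 49029408, minus strand), the inducible IMP dehydrogenase that commits IMP to guanine nucleotides, had 178, 172, 178 and 192 CPM in R273H P72, against 203, 251 and 251 CPM in R175H P72. All R273H P72 libraries were lower, with a log2 fold change of -0.46 (SE 0.11, edgeR adjusted p = 0.00579), and -0.40 within batch b2 alone (edgeR adjusted p = 0.0924). PPAT, the committed first step, had 18.3, 22.0, 17.1 and 19.5 CPM in R273H P72, against 20.9, 15.6 and 14.7 CPM in R175H P72. Its neighbour PAICS, a bifunctional enzyme of later steps, had 73.7, 56.3, 60.4 and 60.9 CPM in R273H P72, against 58.6, 63.5 and 67.3 CPM in R175H P72. Both genes overlapped between the groups and neither passed.

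The other purine genes had log2 fold changes of -0.33 (IMPDH1, the constitutive paralog) to 0.18 (GART, which carries 3 activities of the pathway). For GART the log2 ratio of the plain group means was -0.10, so its sign came from the batch term. ATIC, the enzyme of the last steps to IMP, was nearest to the threshold at -0.26 (SE 0.09, edgeR adjusted p = 0.0594). SON overlaps GART on the opposite strand and had 227% of its counts. The median over the purine genes was -0.10.

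Pyrimidine synthesis had no gene called among 4 tested by edgeR, none had an unadjusted p under 0.05, and DESeq2 and limma-voom called none. CAD, the fused enzyme of the opening steps, had 124, 138, 143 and 136 CPM in R273H P72, against 131, 128 and 135 CPM in R175H P72. UMPS, which completes UMP, had 70.2, 58.2, 59.5 and 58.2 CPM in R273H P72, against 62.0, 50.1 and 56.9 CPM in R175H P72. CTPS1, which aminates UTP to CTP, had 74.0, 82.3, 76.2 and 65.1 CPM in R273H P72, against 67.0, 69.6 and 63.6 CPM in R175H P72. The groups overlapped for all 3 genes, and the 95% intervals of their log2 fold changes ran from -0.36 for CAD at the lowest to 0.46 for UMPS at the highest.

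Among the 4 nucleotide kinases, 2 fell, against 7.6% of all genes. NME2 (ENSG00000243678, chromosome 17, 51165435 to 51171747, plus strand), a nucleoside diphosphate kinase that recharges triphosphates, had 739, 751, 767 and 787 CPM in R273H P72, against 898, 951 and 880.2 CPM in R175H P72. The groups did not overlap and the log2 fold change was -0.39 (SE 0.10, edgeR adjusted p = 0.00798). Within batch b2 alone it was -0.30 and did not keep the call. The NME2 call was also lost without the batch term, at -0.26 (edgeR adjusted p = 0.0683). NME1, its adjacent paralog, had 155, 152, 156 and 153 CPM in R273H P72, against 171, 161 and 153 CPM in R175H P72, and was not called. Reads that match both paralogs could be shared between them by the counting tool, so the split between NME1 and NME2 is uncertain. GUK1 (ENSG00000143774, chromosome 1, 228139962 to 228148984, plus strand), the guanylate kinase that makes GDP, had 24.9, 26.1, 24.2 and 31.3 CPM in R273H P72, against 30.8, 33.4 and 33.9 CPM in R175H P72. R273H P72 replicate 4 overlapped the R175H P72 range, and the log2 fold change was -0.49 (SE 0.16, edgeR adjusted p = 0.0372). Within batch b2 alone it was -0.40 and did not keep the call. The GUK1 call held in 5 of the 11 fits that left out 1 library. It was lost under DESeq2, without the batch term and with the replicate block.

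Purine salvage was split. APRT (ENSG00000198931, chromosome 16, 88809339 to 88811944, minus strand), which returns adenine to AMP, had 148, 158, 163 and 158 CPM in R273H P72, against 214, 214 and 208 CPM in R175H P72. A wide gap separated the groups, and the log2 fold change was -0.60 (SE 0.09, edgeR adjusted p = 0.000234). Within batch b2 alone it was -0.52 (edgeR adjusted p = 0.0184). HPRT1, which returns hypoxanthine and guanine to nucleotides, had 41.3, 28.5, 31.9 and 35.1 CPM in R273H P72, against 51.1, 50.1 and 48.7 CPM in R175H P72. The HPRT1 groups did not overlap, yet HPRT1 was also lower in batch b1, and its batch-adjusted log2 fold change of -0.30 did not pass (edgeR adjusted p = 0.0757). Without the batch term it was -0.54 and passed (edgeR adjusted p = 0.00607). Adenosine kinase ADK and purine nucleoside phosphorylase PNP were at 0.06 and 0.12 on the log2 scale and were not called.

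Pyrimidine and deoxynucleoside salvage held the member with the largest fitted change. UPP1 (ENSG00000183696, chromosome 7, 48088628 to 48108733, plus strand), which splits uridine into uracil and ribose phosphate, had 80.3, 79.2, 104 and 78.5 CPM in R273H P72, against 156, 201 and 161 CPM in R175H P72. The highest R273H P72 library was below the lowest R175H P72 library, with means of 85.5 ± 12.3 and 173 ± 24.7 CPM (SD, n = 4 and 3). The log2 fold change was -1.35 (SE 0.21, 95% interval -1.83 to -0.87, edgeR adjusted p = 0.00324), and -1.11 within batch b2 alone (edgeR adjusted p = 0.00251). The log2 ratio of the group means, with no batch term, was -1.01. R273H P72 replicate 3 stood above the other 3 libraries of its group.

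TK2 (ENSG00000166548, chromosome 16, 66508003 to 66552544, minus strand), the thymidine kinase of mitochondria, had 12.7, 9.61, 8.41 and 8.97 CPM in R273H P72, against 17.8, 16.7 and 17.2 CPM in R175H P72. The groups did not overlap, and the log2 fold change was -0.72 (SE 0.20, edgeR adjusted p = 0.0154). It was smaller within batch b2 alone, at -0.44 (edgeR adjusted p = 0.237), where R273H P72 has 1 library. TK1, the cytosolic thymidine kinase of S phase, had 59.4, 77.0, 72.4 and 67.7 CPM in R273H P72, against 59.0, 56.3 and 60.9 CPM in R175H P72, and its log2 fold change of 0.08 (95% interval -0.14 to 0.30) did not pass. DCK, which phosphorylates deoxycytidine, had 5.05, 4.22, 2.30 and 3.59 CPM in R273H P72, against 5.64, 3.32 and 4.96 CPM in R175H P72. At this depth its interval was wide, from -0.66 to 0.67. The uridine-cytidine kinases UCK1, UCK2 and UCKL1 were at 0.04, 0.01 and 0.01 on the log2 scale in the fit with batch. Their log2 ratios of plain group means were 0.20, -0.03 and -0.69. Overlapping genes had 181% of the counts of UCK1 (POMT1), 415% of UCK2 (TMCO1) and 271% of DCK (MOB1B, on the same strand).

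RRM1, APRT and UPP1 were called in all 11 fits that left out 1 library and in all 11 other alternatives. Without R175H R72 replicate 1 these 3 remained and the count fell to 3 members. That library enters this comparison only through the batch term and the shared spread. The share of all genes called in the fit without it is not given here. IMPDH2, NME2 and TK2 lost their call in that fit, with log2 fold changes of -0.40, -0.30 and -0.43, as did TYMS at 0.24 and GUK1 at -0.40. In that fit batch b1 holds only R273H P72 libraries, so the fold changes rest on R273H P72 replicate 1. The same holds within batch b2 alone, so these are not separate checks. The 3′ ends of APRT and GUK1 are rich in GC (62.8% and 62.2% over the last 500 nt, against a median of 46.2% for all genes tested), and libraries differed in how counts depended on GC. After a correction for this the log2 fold change of APRT was -0.36 (edgeR adjusted p = 0.0117) and that of GUK1 was -0.26, which was not called.

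**Figure D3:**
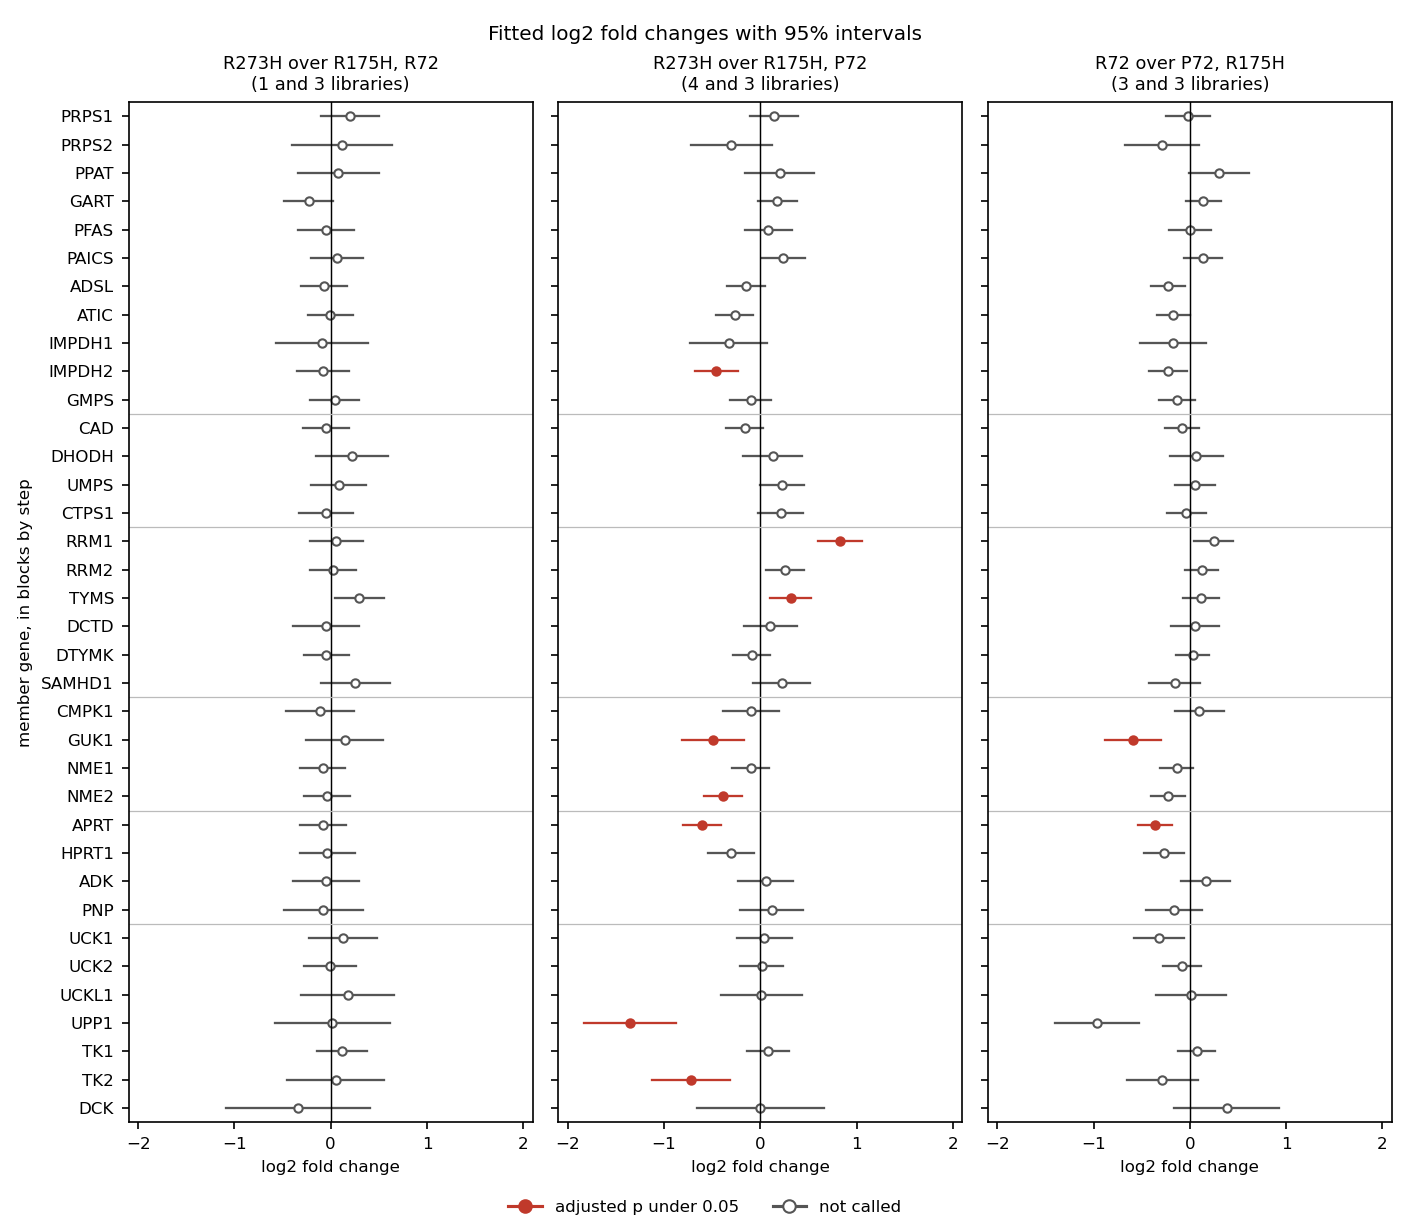
Fitted log2 fold changes with 95% intervals for the 36 members tested, in blocks by step, for R273H over R175H on R72 and on P72 and for R72 over P72 on R175H; filled points passed the adjusted test. The 8 filled points of the middle panel have no filled counterpart in the left panel, where R273H R72 is 1 library.

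A wider list of 48 other nucleotide genes, 42 of them tested, had 4 genes higher and 6 lower in R273H P72 than in R175H P72, or 23.8% against 14.6% of all genes, with a median of 0.00. DGUOK, NME3 and DUT were among the genes with the smallest p. DGUOK, the mitochondrial deoxyguanosine kinase and companion of TK2, had 80.3, 86.5, 93.7 and 96.3 CPM in R273H P72, against 126, 126 and 118 CPM in R175H P72. The groups were clearly apart, with a log2 fold change of -0.55 (SE 0.10, edgeR adjusted p = 0.00083), and -0.62 within batch b2 alone (edgeR adjusted p = 0.00946). NME3, another nucleoside diphosphate kinase, was at -0.52, and -0.22 with no call after the GC correction. DUT, which removes dUTP, was at 0.33, but 0.05 without the batch term, and without R175H R72 replicate 1 it was 0.29 and not called (edgeR adjusted p = 0.11). The count for this list was smaller within batch b2 alone, and it was 1 without R273H P72 replicate 1. The share of all genes called without that library is not given here.

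Markers of S phase also differed in this comparison. Of 20 listed S phase genes, 9 were higher and none lower in R273H P72 (45%, against 6.95% of all genes called higher), the median log2 fold change was 0.40, and 18 had positive values. FEN1, the flap nuclease of lagging strand synthesis, had 79.4, 76.3, 60.7 and 63.9 CPM in R273H P72, against 41.9, 41.2 and 43.5 CPM in R175H P72. The groups were far apart, at 0.96 on the log2 scale (SE 0.11, edgeR adjusted p = 1.96e-05), although FEN1 overlaps FADS2 and TMEM258. Of the MCM helicase subunits, MCM3 at 0.91, MCM4 at 0.63 and MCM2 at 0.56 were higher. Without the batch term MCM2 was at 0.33 and not called. MCM5 had 98.3 to 135 CPM in R273H P72, against 106 to 115 CPM in R175H P72. MCM6 had 65.8 to 72.3 CPM, against 53.6 to 69.1 CPM, so both overlapped between the groups. MCM7 had 442 to 499 CPM in R273H P72, against 386 to 407 CPM in R175H P72. MKI67, a marker of cycling cells, was higher at 0.33. The part of cell cycle distribution in the RRM1 and TYMS values was not tested. Within batch b2 alone, where R273H P72 has 1 library, FEN1 was at 0.91, MCM3 at 0.83, MCM2 at 0.52 and MCM4 at 0.47. Of the S phase genes, 6 were called without R175H R72 replicate 1. The share of all genes called in that fit is not given here.

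Among 15 tested regulators, 2 were higher and 1 lower, or 20% against 14.6% of all genes. E2F2, an activator of S phase genes, averaged 15.4 ± 1.44 CPM in R273H P72 and 9.23 ± 1.07 CPM in R175H P72 (SD, n = 4 and 3). The groups did not overlap, at 0.76 on the log2 scale (SE 0.19, edgeR adjusted p = 0.00926). E2F3 was at 0.37 (edgeR adjusted p = 0.0176). Without R175H R72 replicate 1 both lost their call, E2F2 at 0.58 (edgeR adjusted p = 0.0751) and E2F3 at 0.30 (edgeR adjusted p = 0.118). Neither was called within batch b2 alone, but that fit rests on the same R273H P72 library and is not a separate check. E2F3 was not called without the batch term or with the GC correction either. ATF4, an activator of amino acid synthesis genes, was at -0.39 (edgeR adjusted p = 0.00987), but at -0.09 without the batch term.

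**Figure D4:**
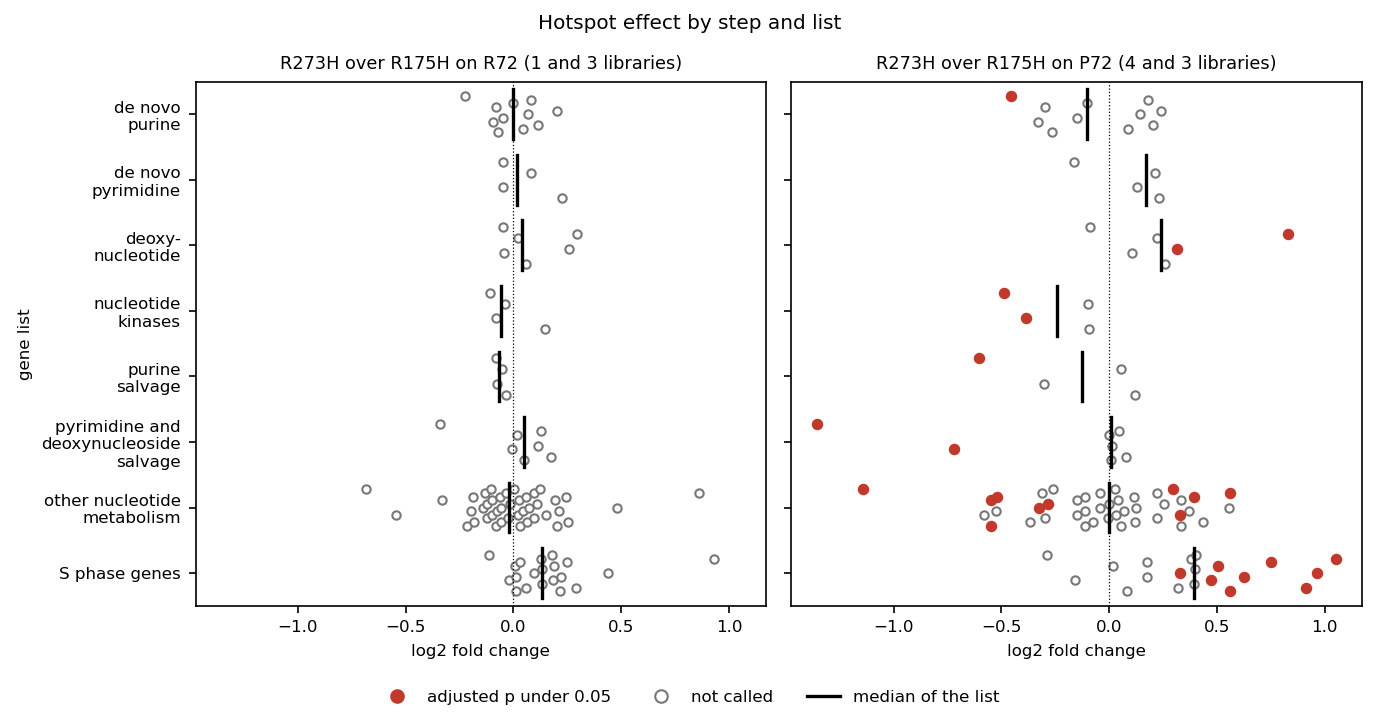
Log2 fold changes of R273H over R175H by step and list, on R72 (left) and on P72 (right); each point is a gene, filled points passed the adjusted test, and bars are list medians. On P72 the S phase genes sit mostly right of 0 with a median of 0.40 and the kinases left of it with a median of -0.24; on R72 no point is filled.

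On R72 the same hotspot comparison rested on 1 R273H library against 3 R175H libraries. edgeR called 0 of 36 members, against 0.0429% of all genes, 1 member (TYMS) had an unadjusted p under 0.05, and DESeq2 and limma-voom called 0. RRM1 had 215 CPM in the R273H R72 library, against 177, 198 and 222 CPM in R175H R72. UPP1 had 89.4 CPM in R273H R72, against 144, 74.5 and 85.7 CPM in R175H R72. APRT had 156 CPM in R273H R72, against 206, 156 and 164 CPM in R175H R72. In these 3 genes the R273H R72 library lay within or at the edge of the R175H R72 range, and the fitted log2 fold changes were 0.06 (95% interval -0.22 to 0.34), 0.02 (-0.58 to 0.61) and -0.08 (-0.32 to 0.16).

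TYMS had 261 CPM in R273H R72, above the 177, 204 and 231 CPM of R175H R72, with a log2 fold change of 0.30 on R72 and 0.31 on P72. TK2 had 14.6 CPM in R273H R72, against 16.5, 14.3 and 10.7 CPM in R175H R72. IMPDH2 had 190.1 CPM in R273H R72, against 223, 192 and 202 CPM in R175H R72. NME2 had 756 CPM in R273H R72, against 929.6, 768 and 737 CPM in R175H R72. For NME2 and TK2 the single library lay inside the R175H R72 range, and for IMPDH2 just below it. The median log2 fold change of the members was 0.00 on R72, as it was over all genes.

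Whether the hotspot effect differed between R72 and P72 was tested as an interaction. edgeR called 0 of 36 members, against 0.0306% of all genes, while 8 members had an unadjusted p under 0.05. limma-voom called 0 and DESeq2 called 1, RRM1. The difference, R72 minus P72, was -0.77 for RRM1 (SE 0.19, 95% interval -1.16 to -0.38, edgeR adjusted p = 0.149) and 1.37 for UPP1 (SE 0.36, 95% interval 0.55 to 2.19, edgeR adjusted p = 0.24). It was 0.52 for APRT, 0.77 for TK2, 0.38 for IMPDH2 and 0.35 for NME2, and none of these passed. With a single R273H R72 library, a difference between the codon 72 forms was not established for any member by this test.

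Between R72 and P72 on R175H, 3 libraries each, 2 of 36 members differed and both were lower with R72, the guanylate kinase GUK1 and the adenine salvage enzyme APRT. That is 5.56% of the members, against 1.13% of all genes, of which 0.815% were lower. A further 8 members had an unadjusted p under 0.05. The libraries did not overlap for 11 members (30.6%), against 13% of all genes. The median log2 fold change of the members was -0.06, against 0.00 over all genes, and no gene of the purine, pyrimidine or deoxynucleotide steps was called.

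GUK1 had 27.9, 17.2 and 24.8 CPM in R175H R72, against 30.8, 33.4 and 33.9 CPM in R175H P72. All R72 libraries were lower, with replicate 2 lowest, and the log2 fold change was -0.59 (SE 0.14, edgeR adjusted p = 0.0406). APRT had 206, 156 and 164 CPM in R175H R72, against 214, 214 and 208 CPM in R175H P72. Replicate 1 lay just under the P72 libraries and the other two far below, and the log2 fold change was -0.36 (SE 0.08, edgeR adjusted p = 0.035). Within batch b2 alone, which leaves out replicate 1, the log2 fold change was -0.41 for APRT (edgeR adjusted p = 0.0425) and -0.65 for GUK1 (edgeR adjusted p = 0.0532). Without a batch term neither gene was called.

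The dependence of counts on GC content also differed within this comparison. The slope was 0.0857, -0.0918 and -0.0597 log2 units per 10% GC in R175H R72 replicates 1, 2 and 4, against 0.0113, 0.0379 and 0.0211 in R175H P72. After the GC correction the log2 fold changes were -0.41 for GUK1 (edgeR adjusted p = 0.218) and -0.16 for APRT (edgeR adjusted p = 0.458), and no member was called. CDT1, a licensing factor whose gene ends 80 bases from the end of APRT on the opposite strand, was also lower, at -0.57 (SE 0.11, edgeR adjusted p = 0.00784), as was NME3 at -0.53 (edgeR adjusted p = 0.0105). Neither was called after the GC correction.

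UPP1 had 144, 74.5 and 85.7 CPM in R175H R72, against 156, 201 and 161 CPM in R175H P72. Replicate 1 lay close to the P72 libraries, whereas replicates 2 and 4 were near the levels of R273H P72. The log2 fold change of -0.96 (SE 0.19) missed the threshold with all libraries (edgeR adjusted p = 0.0574). With the same libraries it passed under DESeq2, limma-voom, no filter, the 10 CPM filter and the replicate block. Without R175H R72 replicate 1 it was -1.11 and passed (edgeR adjusted p = 0.000608). Within batch b2 alone it was -1.11 as well (edgeR adjusted p = 0.000163), but that fit compares the same R175H libraries and is not a separate check. The comparison shares the R175H P72 libraries with the hotspot comparison on P72, so its values for UPP1 and APRT are not a second observation of those libraries.

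The deoxynucleotide genes were not called with R72 on R175H. RRM1 had 177, 198 and 222 CPM in R175H R72, against 187, 156 and 178 CPM in R175H P72, with a log2 fold change of 0.25 (SE 0.10, edgeR adjusted p = 0.245). HPRT1 had 33.7, 40.6 and 41.5 CPM in R175H R72, below the 51.1, 50.1 and 48.7 CPM of R175H P72, at -0.27 (edgeR adjusted p = 0.214). ADSL, which acts at 2 steps of purine synthesis, had 71.0, 68.9 and 68.8 CPM in R175H R72, below the 81.9, 81.2 and 77.6 CPM of R175H P72, at -0.23 (edgeR adjusted p = 0.204). The groups did not overlap for HPRT1 and ADSL, but neither difference passed the adjusted test. PPAT had 18.9, 22.2 and 21.3 CPM in R175H R72, against 20.9, 15.6 and 14.7 CPM in R175H P72, at 0.30 (edgeR adjusted p = 0.385).

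Between R72 and P72 on R273H, 1 library against 4, edgeR called 0 of 36 members and 0 of all genes, or 0%. RRM1 was the only member with an unadjusted p under 0.05. limma-voom called 0 and DESeq2 called 1, RRM1. RRM1 had 215 CPM in R273H R72, against 298, 312, 266 and 251 CPM in R273H P72. The R72 library was below all 4 P72 libraries, at -0.52 on the log2 scale (SE 0.15, 95% interval -0.83 to -0.21, edgeR adjusted p = 0.271). TYMS had 261 CPM in R273H R72, above the 231, 222, 219 and 215 CPM of R273H P72, at 0.10. UPP1 and APRT had 89.4 and 156 CPM in R273H R72, inside the R273H P72 ranges of 78.5 to 104 and 148 to 163 CPM. The R273H R72 library fell outside the R273H P72 range for 20 members, or 55.6%, against 47.2% of all genes.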

How the data were processed

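Per the labels' protocols, H1299 cells were transfected with 5 µg of DNA and selected in 800 µg per ml neomycin for 14 days, and 3′ tag libraries (Lexogen QuantSeq) were read as single 75 bp reads. The deposited values are estimated counts per gene, whole numbers as deposited by the authors. Per the submitters' processing notes, Bowtie2, RSEM 1.2.12, DESeq2 and build hg38 were used, in no stated order. The sources used here do not give whether strand was used.

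Columns were matched to libraries by title, and groups and batches taken from the labels. edgeR 4.0.16 in R 4.3.3 was used with filterByExpr by group (minimum count 10, minimum total 15), TMM scaling and robust quasi-likelihood fits of group and batch over all 11 libraries. This left 16324 genes and 6 residual degrees of freedom. The Benjamini-Hochberg adjustment ran over the whole table tested, and calls were made at 0.05. CPM values use TMM-scaled totals. The alternatives tried were limma-voom (limma 3.58.1), DESeq2 1.42.0, scaling by RLE or library totals, no filter or one of 10 CPM in 3 or more libraries, omission of the batch term, a replicate block, batch b2 alone, leaving out each library, and a GC correction using the final 500 nt of transcripts (natural spline, 5 degrees of freedom). The procedure was tested on simulated data. Replicates of a group differed beyond sampling noise, and none was treated as a duplicate.

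The figures show all 36 members tested, and the text does not give values for every one of them. Values per library are given for called members and for 16 enzymes fixed as representatives of the steps. ADSL and DTYMK were added after their values were seen. For other lists the up to 4 called genes with the smallest p are named, with MKI67 named besides. Not every gene so selected is reported here. The members and lists were chosen with earlier results of these data known. Coordinates are from GENCODE 29 (hg38), and promoter sequences from RefSeq, where 35 of 37 members had an entry.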

Additional observations from a re-analysis of the deposited data

Results flagged for a closer look

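In groups of 4 libraries, a library far from the others was found for 2 of 36 members, and chance gives about 1 in 20. UMPS had 70.2 CPM in R273H P72 replicate 1, against 58.2 to 59.5 CPM in the other 3 libraries of the group. Replicate 1 is also the only library of this group in batch b2, so library and batch cannot be told apart. UPP1 had 104 CPM in R273H P72 replicate 3, against 78.5 to 80.3 CPM in the other 3.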

How the results depend on the processing

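For R273H over R175H on P72, 8 members were called (22.2%, against 14.6% of all genes), and fewer within batch b2 alone. The count was 3 to 8 when 1 library was left out, the 3 being without R175H R72 replicate 1. Shares of all genes called in the fits that left out 1 library are not given here. For R72 over P72 on R175H, 2 members were called. That count was 0 with no batch term, 0 with the GC correction, 1 with the replicate block and 1 with GC correction and replicate block (UPP1 both times), 3 with no filter, the 10 CPM filter, DESeq2 or limma-voom (GUK1, APRT and UPP1), and 0 to 3 when 1 library was left out. It was 0 without R175H P72 replicate 2 or R175H R72 replicate 2. Calls over all genes numbered 185, with 6 under no batch term and 52 under the GC correction. For R72 over P72 on R273H, 0 were called, with 1 under no filter and 1 under DESeq2, and 0 in every fit that left out 1 library. For the difference of the hotspot effects, 0 were called, with 2 under no filter, 1 under DESeq2, and 0 to 1 when 1 library was left out, the 1 being UPP1 without R273H P72 replicate 1. For R273H over R175H on R72, 0 were called under all alternatives run. The cause of these shifts was not tested. No called member changed direction, and without the R273H R72 library the comparisons that need it have no value.

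Same-numbered libraries did not deviate together (correlations -0.603 to 0.259 over 8968 genes), so they share only a number, and the replicate block left 6 members called for R273H over R175H on P72. Scalings moved the median of all genes by at most 0.0352 on the log2 scale. Among the members, counts were lowest for CTPS2 and DCK, and whether depth was the reason was not tested.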
